A study of Mus musculus with 12 samples.

Results

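The genes described here are 42 chemokines, cytokines and target genes of the transcription factor NF-kB, read on arrays of SKPs (skin-derived precursors), mouse dermal cells that form spheres in suspension and can give rise to dermal cell types. They were taken by symbol from the array annotation, with the brightest probe set per symbol. Of the 42, 41 matched 1 of the 22180 genes that carry a single symbol, and Il1rl1 is not analysed here. Testing required a value over the array's own median on 3 or more arrays, which held for 36 members among 13153 genes, and 29 members lay above the median on all 12 arrays. Ccl20, Il1b and Csf2 lay above the median on no array, Il1a on 1 and Tslp on 2, and these 5 are called dim and were not tested. Tnf passed through 4 arrays and Il6 through 5, while Cxcl5 and Cxcl10 were above the median on 9, Cxcl2 and Csf3 on 10 and Cxcl1 on 11.

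RNA came from secondary SKP spheres of mice aged 9 months, and the labels write the strain as CD57/Bl6. The 4 groups held 3 arrays each, every array an independent isolate per the series text: wounded skin with trimebutine maleate, wounded skin with alprostadil, wounded skin with vehicle, and uninjured skin with vehicle. Trimebutine maleate is a drug used for disorders of gut movement, and alprostadil is prostaglandin E1. The spheres were grown with FGF2, EGF and B27 before RNA was taken, so every value describes cultured cells and not skin. The sources used here give no dose, route, time after wounding or skin site, and injury and site cannot be told apart.

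NF-kB is a family of dimeric transcription factors that the inhibitor IkB-alpha holds in the cytoplasm. Signals from the receptors for IL-1, TNF and bacterial products release it, and it then switches on chemokines, cytokines, adhesion molecules and its own inhibitors. Chemokines guide white blood cells along a gradient, and dermal fibroblasts are a known source of many of them in injured and inflamed skin.

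The sequence that NF-kB dimers bind is known as the kappa-B consensus. RefSeq promoter entries on the mouse build GRCm38.p6 were found for 30 of the 42 genes, and the 250 bases before each start were searched on both strands. The consensus was present in 12 of 30 windows (40.0%), against 1279 of 32817 RefSeq start windows of the same length (3.9%). The 42 genes were listed in part as known NF-kB targets, so the share describes the list. The stretches below were picked from the 12 windows with a match, and the capitals mark the consensus. The windows of Lcn2, Icam1 and Saa3, which are among the members of smallest p in the F test below, held no match. They lie at chr5:90891125-90891244 on the plus strand (Cxcl1), chr5:90903779-90903898 on the plus strand (Cxcl2), chr5:92348890-92349053 on the minus strand (Cxcl10), chr11:83578637-83578756 on the minus strand (Ccl9), chr12:55492648-55492767 on the minus strand (Nfkbia) and chr17:13007719-13007838 on the plus strand (Sod2), each written 5′ to 3′ on its gene's strand and ending at the base before the start.
Cxcl1: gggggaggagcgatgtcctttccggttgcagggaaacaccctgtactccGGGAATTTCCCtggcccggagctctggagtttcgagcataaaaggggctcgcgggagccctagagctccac
Cxcl2: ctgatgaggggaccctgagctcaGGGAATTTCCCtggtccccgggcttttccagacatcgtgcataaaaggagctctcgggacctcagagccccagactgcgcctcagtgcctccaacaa
Cxcl10: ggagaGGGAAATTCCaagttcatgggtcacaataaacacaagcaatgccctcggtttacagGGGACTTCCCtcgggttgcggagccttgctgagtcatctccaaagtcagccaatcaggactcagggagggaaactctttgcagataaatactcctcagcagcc
Ccl9: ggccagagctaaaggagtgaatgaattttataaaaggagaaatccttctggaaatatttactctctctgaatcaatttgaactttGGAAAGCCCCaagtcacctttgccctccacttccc
Nfkbia: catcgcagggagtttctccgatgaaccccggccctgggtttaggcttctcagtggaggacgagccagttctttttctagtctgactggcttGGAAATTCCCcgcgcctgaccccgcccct
Sod2: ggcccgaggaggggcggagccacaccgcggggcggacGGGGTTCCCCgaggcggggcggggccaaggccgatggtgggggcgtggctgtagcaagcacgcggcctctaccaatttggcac
Cxcl1 and Cxcl2, which are next to each other among protein-coding genes on chromosome 5, carry the same run of 11 bases, GGGAATTTCCC, starting 71 and 97 bases before their starts. Cxcl10 holds a pair of matches, 159 and 103 bases before its start, and Nfkbia holds its match 29 bases before. A match is a description of the letters and not evidence of binding in these cells.

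Levels are log2 values of a single probe set and are compared between arrays, not between genes. Array medians lay between 6.57 and 6.74. The mean of 17 markers of fibroblasts and SKPs was 10.49 to 11.21 on the 12 arrays, while Sox2, an SKP marker, reached at most 5.60 and was dim throughout. Markers of T and NK cells averaged 5.66 to 5.84 and those of keratinocytes 6.10 to 6.36. The mean of 22 macrophage markers was 6.16 to 6.71 in wound trimebutine, 6.17 to 10.13 in wound alprostadil, 6.61 to 7.19 in wound vehicle and 6.44 to 6.80 in uninjured vehicle. The value of 10.13 belonged to wound alprostadil replicate 1, where 21 of the 22 markers lay above the array median. The results below that this array moves most are given with and without it. In bulk samples, fewer cells of a type and less RNA per cell cannot be told apart.

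Each array was summarised by the median over the 36 tested members after each gene was centred on its mean. This score was 0.22, -0.08 and -0.24 on the wound trimebutine arrays, 0.08, -0.54 and 0.02 on the wound alprostadil arrays, -0.37, -0.52 and -0.01 on the wound vehicle arrays and 0.71, 0.48 and 0.25 on the uninjured vehicle arrays. All 3 uninjured arrays scored above all 9 wound arrays. Replicates within the wound groups were unequal. Wound vehicle replicates 1 and 2 and wound alprostadil replicate 2 scored lowest, and wound vehicle replicate 2 held the lowest value of 14 of the 41 matched members. Uninjured vehicle replicate 1 held the highest value of 17 members and wound alprostadil replicate 1 that of 11. The shares over all genes are not given for these counts.

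**Figure D1:**
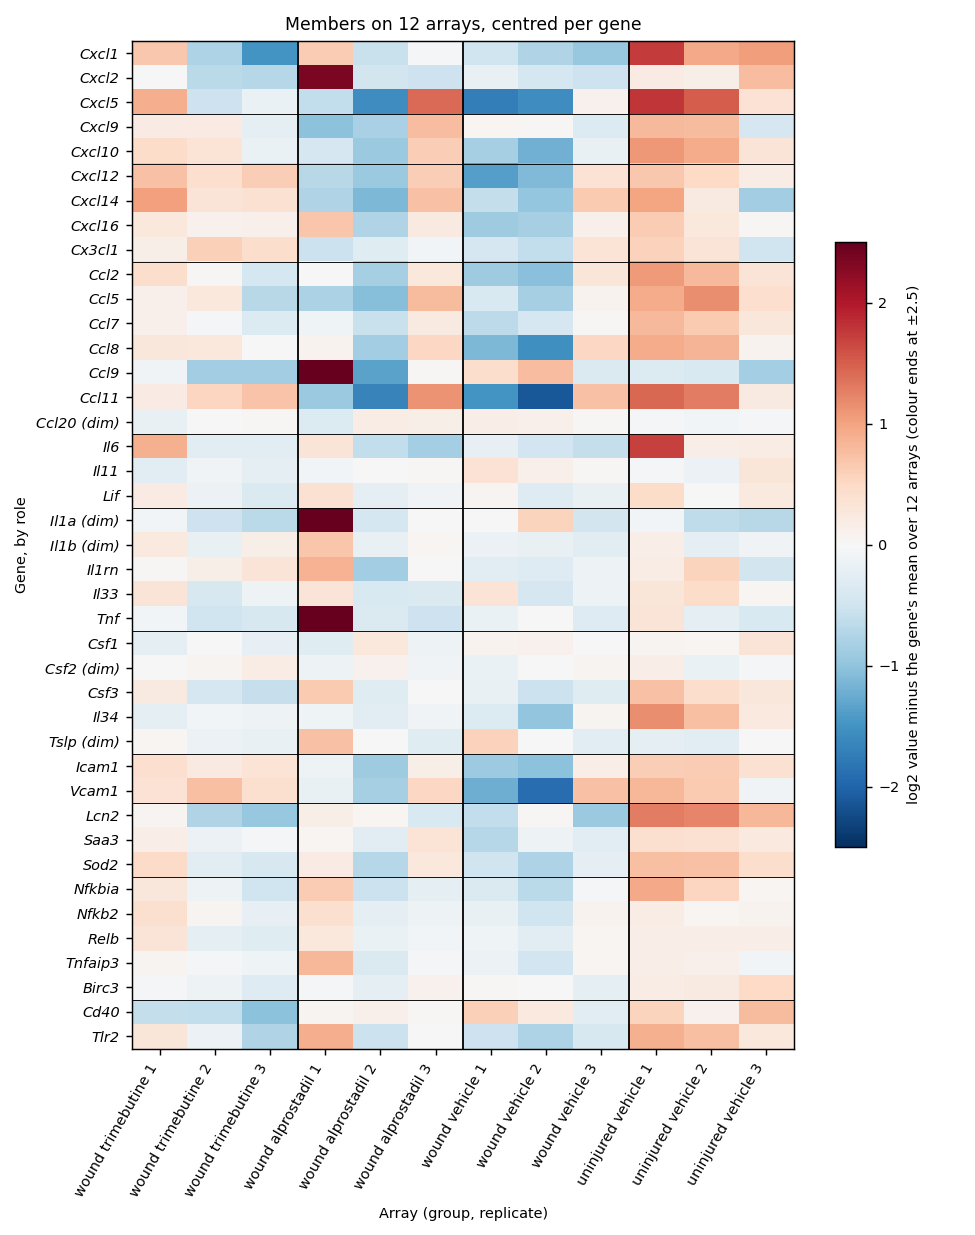
Values of the 41 matched members (rows, by role, dim ones marked) on the 12 arrays (columns, by group), as log2 value minus the gene's mean over the 12 arrays. The uninjured vehicle columns are mostly red, and wound vehicle replicates 1 and 2 and wound alprostadil replicate 2 are mostly blue, with Ccl9, Cxcl2, Tnf and Il1a dark red in wound alprostadil replicate 1.

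Wound vehicle is set against uninjured vehicle here. Neither group had a drug, and injury and skin site cannot be told apart. Of the 36 tested members, 34 lay lower in wound vehicle, where 48.6% of all tested genes did. The median difference was -0.84 on the log2 scale against 0.01 over all 13153 tested genes. The list was chosen with earlier results of these data known, so the counts here and below describe it and do not test it. No member passed a Benjamini-Hochberg adjusted p of 0.05 in limma, where 0.0456% of tested genes passed, and the smallest adjusted p of a member was 0.113 (Lcn2). At an unadjusted p under 0.05, 20 members lay lower in limma, against 8.24% of tested genes lower, and 0 members lay higher, against 4.75%. The 3 wound vehicle arrays lay below all 3 uninjured arrays for 18 members, against 10.0% of tested genes. With no filter, 20 of the 41 matched members lay lower at an unadjusted p under 0.05, against 5.87% of 22180 genes. Of the 29 members above the median on all arrays 15 did so, and their median difference was -0.71. Il6, which passed the filter only through the uninjured arrays, is among the 34, the 20 and the 18. The count of 20, taken in either direction, was 12 when wound vehicle replicate 1 was left out, and 13 when wound vehicle replicate 2 or uninjured vehicle replicate 1 was. It was at most 22, without uninjured vehicle replicate 3. In the F test across the 4 groups 0 members passed at an adjusted p of 0.05 in limma (0.0152% of tested genes). In that test 12 of 36 had an unadjusted p under 0.05 (7.89%). This was 7 when uninjured vehicle replicate 1 was left out and 18 when wound vehicle replicate 3 was. The words lower and higher below give the sign of a difference, since no member passed the adjusted test in any comparison. Counts of members with an array left out, here and below, are given without the share of all tested genes under the same omission. They show only how far a count rests on single arrays.

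The trimebutine and alprostadil groups are set against the same 3 uninjured arrays, so these comparisons are not independent of it. In wound trimebutine 31 of 36 members lay below uninjured vehicle, where 48.9% of tested genes did, with a median difference of -0.40 against 0.00 over all tested genes. In wound alprostadil 32 lay below, where 44.6% of tested genes did, with a median of -0.50 against 0.02. Without wound alprostadil replicate 1, 36 lay below, with a median of -0.63, and without wound alprostadil replicate 2, 29 did, with a median of -0.33. In limma 0 members passed at an adjusted p of 0.05 in either comparison (0.198% and 0.0% of tested genes). At an unadjusted p under 0.05, 9 members lay lower in wound trimebutine (3.6% of tested genes) and 11 lower in wound alprostadil (3.97%). Il6, which passed the filter only through the uninjured arrays, is among the 31, the 32 and these 11. Groups did not overlap for 11 members lower in wound trimebutine (6.61%) and 8 lower in wound alprostadil (4.36%). Taken in either direction, the 9 became 5 without wound trimebutine replicate 3 and 5 without uninjured vehicle replicate 1. They became 12 without wound trimebutine replicate 1 or wound alprostadil replicate 1. The 11 of wound alprostadil at that level became 4, 7 and 5 without uninjured vehicle replicate 1, uninjured vehicle replicate 2 and wound alprostadil replicate 2. They became 13 without wound alprostadil replicate 1, and 14 without wound alprostadil replicate 3 or uninjured vehicle replicate 3.

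Among the wound groups, each drug group was set against wound vehicle and the drug groups against each other. Both drug groups are set against the same 3 wound vehicle arrays, so these comparisons are not independent of each other. In wound trimebutine 9 of the 36 members lay below wound vehicle, against 50.0% of tested genes, and the median difference was 0.27, against 0.00 over all tested genes. In wound alprostadil 7 lay below wound vehicle, against 40.6% of tested genes, and the median was 0.32, against 0.03. Without wound alprostadil replicate 1, the array with high macrophage markers, 11 lay below and the median was 0.15, and the median was 0.58 without wound alprostadil replicate 2 and 0.12 without wound vehicle replicate 2. In limma no member passed at an adjusted p of 0.05 in either, and no tested gene did (0.0%). At an unadjusted p under 0.05, 4 members lay higher and 2 lower in wound trimebutine than in wound vehicle, against 6.38% and 3.05% of tested genes, and groups did not overlap for 4 higher and 3 lower (9.21% and 6.63%). That total of 6 at an unadjusted p under 0.05 was 1 with wound vehicle replicate 1 left out, 3 with wound vehicle replicate 2 or wound trimebutine replicate 1 left out, and 11 with wound vehicle replicate 3 left out. In wound alprostadil 1 member lay higher than in wound vehicle at that level and 0 lower, against 1.07% and 1.68% of tested genes, and the groups overlapped for all 36, where 2.78% of tested genes lay higher and 3.12% lower without overlap. Its total of 1 ran from 0 to 7 with single arrays left out, highest without wound alprostadil replicate 2. The 2 drug groups differed from each other by a median of 0.03 over the members, with 16 of them below 0 in wound trimebutine minus wound alprostadil (53.8% of tested genes). That count was 8 without wound alprostadil replicate 1 and 26 without wound alprostadil replicate 2, and the median then was 0.13 and -0.18, so the sign of the median rests on single arrays. No member passed at an adjusted p of 0.05 in limma (0.0%). At an unadjusted p under 0.05, 1 member lay higher and 1 lower in wound trimebutine (2.5% and 1.92% of tested genes), a total that ran from 1 to 9 with single arrays left out, highest without wound alprostadil replicate 3.

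**Figure D2:**
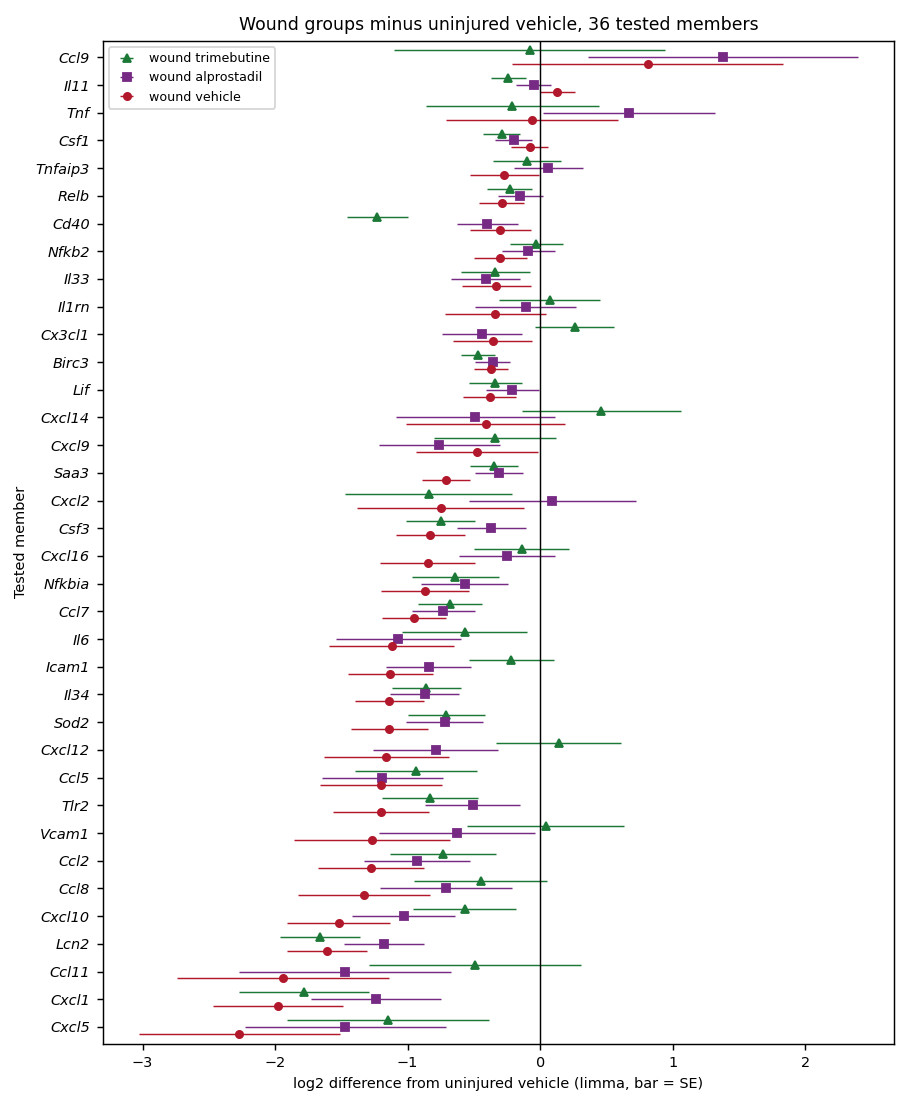
The log2 difference of each wound group from uninjured vehicle for the 36 tested members (rows, ordered by the wound vehicle difference), with bars of 1 SE from limma. Most points of the 3 groups lie left of 0, and the trimebutine points of Cxcl12, Vcam1 and Icam1 lie near 0 while that of Cd40 lies furthest left of its row.

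Cxcl1, Cxcl2 and Cxcl5 encode chemokines that draw neutrophils. All 3 lay lower on every wound vehicle array than on any uninjured array, where 10.0% of tested genes did. Cxcl1 measured 8.64, 7.20 and 6.48 on wound trimebutine arrays, 8.61, 7.42 and 7.91 on wound alprostadil arrays, 7.47, 7.21 and 7.02 on wound vehicle arrays and 9.72, 8.91 and 9.02 on uninjured vehicle arrays. The uninjured arrays were the 3 highest of the 12, and wound trimebutine replicate 1 and wound alprostadil replicate 1 came next. Cxcl1 differed by -1.98 ± 0.49 in wound vehicle (SE, adjusted p = 0.187 in limma, 3.96-fold lower), by -1.78 ± 0.49 in wound trimebutine (adjusted p = 0.323) and by -1.24 ± 0.49 in wound alprostadil (adjusted p = 0.656) from uninjured vehicle. Cxcl5 measured 8.88, 7.44 and 7.80 on wound trimebutine arrays, 7.35, 6.42 and 9.38 on wound alprostadil arrays, 6.24, 6.42 and 8.08 on wound vehicle arrays and 9.76, 9.47 and 8.33 on uninjured vehicle arrays. Its wound vehicle difference of -2.27 ± 0.76 was the lowest among the 36 members (adjusted p = 0.281 in limma), and the drug groups overlapped both vehicle groups. Cxcl2 measured 7.37, 6.67 and 6.63 on wound trimebutine arrays, 9.71, 6.89 and 6.84 on wound alprostadil arrays, 7.17, 6.92 and 6.84 on wound vehicle arrays and 7.56, 7.49 and 8.12 on uninjured vehicle arrays. Wound alprostadil replicate 1 was the highest by far, and Cxcl2 in wound alprostadil differed from wound vehicle by 0.83 ± 0.63 with that array and by -0.12 without it. Its wound vehicle difference from uninjured vehicle was -0.75 ± 0.63 (adjusted p = 0.633 in limma).

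Cxcl9 and Cxcl10 encode chemokines that interferons induce and that attract T cells through the receptor CXCR3. Cxcl10 measured 8.01, 7.90 and 7.40 on wound trimebutine arrays, 7.14, 6.63 and 8.17 on wound alprostadil arrays, 6.72, 6.36 and 7.37 on wound vehicle arrays and 8.65, 8.48 and 7.88 on uninjured vehicle arrays. Every wound vehicle array lay below every uninjured array and below every wound trimebutine array. The wound vehicle difference from uninjured vehicle was -1.52 ± 0.39 (adjusted p = 0.195 in limma), and the wound trimebutine difference from wound vehicle was 0.96 ± 0.39 (adjusted p = 0.528). Cxcl9 overlapped among all groups, at 8.76 to 9.21 in wound trimebutine, 7.97 to 9.77 in wound alprostadil, 8.66 to 9.05 in wound vehicle and 8.58 to 9.80 in uninjured vehicle.

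Cxcl12, Cxcl14, Cxcl16 and Cx3cl1 are chemokines with roles outside acute inflammation as well, and Cxcl12 (SDF-1) holds CXCR4-bearing stem and blood cells in their niches. Cxcl12 measured 11.89, 11.59 and 11.79 on wound trimebutine arrays, 10.47, 10.24 and 11.78 on wound alprostadil arrays, 9.78, 10.07 and 11.53 on wound vehicle arrays and 11.84, 11.67 and 11.35 on uninjured vehicle arrays. Wound vehicle replicates 1 and 2 and wound alprostadil replicates 1 and 2 were low, and replicate 3 of both groups lay with the wound trimebutine and uninjured arrays. Cxcl12 was higher in wound trimebutine than in wound vehicle by 1.30 ± 0.47 without overlap (adjusted p = 0.528 in limma), and it differed from uninjured vehicle by 0.14 ± 0.47 in wound trimebutine and by -1.16 ± 0.47 in wound vehicle. Cx3cl1, which encodes a membrane-bound chemokine also called fractalkine, measured 8.0, 8.44 and 8.30 on wound trimebutine arrays, 7.32, 7.55 and 7.78 on wound alprostadil arrays, 7.44, 7.24 and 8.20 on wound vehicle arrays and 8.43, 8.17 and 7.35 on uninjured vehicle arrays. All wound trimebutine arrays lay above all wound alprostadil arrays, by 0.70 ± 0.30 (adjusted p = 0.752). Cxcl14 and Cxcl16 lay higher in wound trimebutine than in wound vehicle by 0.88 ± 0.60 and 0.70 ± 0.36, with overlap.

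The mean of the 17 fibroblast and SKP markers was also 10.49 to 10.63 on wound vehicle replicates 1 and 2 and wound alprostadil replicates 1 and 2, and 10.89 to 11.21 on the other 8 arrays. Several members were lowest on wound vehicle replicates 1 and 2 and wound alprostadil replicate 2. Among them were Cxcl5, Cxcl10, Cxcl12, Cxcl16, Icam1, Vcam1, Ccl2, Ccl7, Ccl8 and Ccl11. The part of the marker mean in their values, and so in their group differences, was not tested.

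Among the CC chemokines, Ccl2, Ccl7, Ccl8 and Ccl11 attract monocytes or eosinophils, and Ccl2, Ccl7 and Ccl11 lie in a row on chromosome 11. Ccl7 measured 12.75, 12.59 and 12.29 on wound trimebutine arrays, 12.53, 12.07 and 12.85 on wound alprostadil arrays, 11.97, 12.20 and 12.65 on wound vehicle arrays and 13.44, 13.29 and 12.92 on uninjured vehicle arrays. The 3 uninjured arrays were the highest of the 12, and Ccl7 differed from them by -0.95 ± 0.24 in wound vehicle (adjusted p = 0.19 in limma), -0.68 ± 0.24 in wound trimebutine (0.518) and -0.73 ± 0.24 in wound alprostadil (0.636). Ccl2 (MCP-1) ran at 11.99 to 12.87 in wound trimebutine, 11.61 to 12.70 in wound alprostadil, 11.40 to 12.74 in wound vehicle and 12.76 to 13.50 in uninjured vehicle, with a wound vehicle difference of -1.28 ± 0.40 (adjusted p = 0.247 in limma). Ccl11 (eotaxin), which attracts eosinophils, measured 11.61, 11.93 and 12.11 on wound trimebutine arrays, 10.47, 9.73 and 12.53 on wound alprostadil arrays, 9.91, 9.28 and 12.13 on wound vehicle arrays and 12.83, 12.68 and 11.62 on uninjured vehicle arrays. Wound vehicle replicate 3 and wound alprostadil replicate 3 lay beside the uninjured arrays while the other arrays of those groups lay below all wound trimebutine arrays, and its wound vehicle difference was -1.94 ± 0.80 (adjusted p = 0.356). Ccl8 had the same spread within wound vehicle, at 10.92, 10.50 and 12.55, against 12.96, 12.88 and 12.13 in uninjured vehicle, a difference of -1.33 ± 0.50 (adjusted p = 0.319). Ccl5 (RANTES) lay lower in wound vehicle by 1.20 ± 0.46 without overlap (adjusted p = 0.327).

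Ccl9 was the tested CC chemokine that did not lie lower in wound vehicle. It measured 8.23, 7.46 and 7.45 on wound trimebutine arrays, 12.19, 6.99 and 8.34 on wound alprostadil arrays, 8.76, 9.09 and 7.95 on wound vehicle arrays and 7.97, 7.94 and 7.47 on uninjured vehicle arrays. Wound alprostadil replicate 1 was far above the rest, and wound vehicle replicates 1 and 2 came next. Ccl9 differed from uninjured vehicle by 0.81 ± 1.02 in wound vehicle (adjusted p = 0.749 in limma), and by 1.38 ± 1.02 in wound alprostadil with replicate 1 and -0.13 without it. Ccl20, which draws CCR6-bearing cells, was dim at 5.79 to 6.32.

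Of the IL-6 family, Il6 lay above the array median on 5 arrays. These were the 3 uninjured vehicle arrays, wound trimebutine replicate 1 and wound alprostadil replicate 1, so it passed the filter only through the uninjured group. It measured 7.55, 6.40 and 6.40 on wound trimebutine arrays, 6.99, 6.05 and 5.81 on wound alprostadil arrays, 6.45, 6.19 and 6.07 on wound vehicle arrays and 8.38, 6.83 and 6.84 on uninjured vehicle arrays. Uninjured vehicle replicate 1 was the highest, and the 3 wound vehicle arrays lay below the uninjured arrays. The wound vehicle difference was -1.12 ± 0.47 (adjusted p = 0.362 in limma), and it was -0.60 without uninjured vehicle replicate 1. Il11, a relative of IL-6 linked to fibroblast activation, measured 6.92, 7.09 and 6.95 on wound trimebutine arrays, 7.11, 7.20 and 7.22 on wound alprostadil arrays, 7.54, 7.31 and 7.22 on wound vehicle arrays and 7.15, 7.03 and 7.49 on uninjured vehicle arrays. It ran the other way from most members, with wound trimebutine below wound vehicle by 0.37 ± 0.13 without overlap (adjusted p = 0.528). Lif, the leukemia inhibitory factor gene, ranged from 7.47 to 8.29 on the 12 arrays, and its groups overlapped.

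TNF and IL-1 are the cytokines that start NF-kB signalling, and Tnf, Il1a and Il1b lay above the array median on 4, 1 and 0 of the 12 arrays. Tnf measured 6.67, 6.24 and 6.34 on wound trimebutine arrays, 9.31, 6.38 and 6.22 on wound alprostadil arrays, 6.57, 6.75 and 6.41 on wound vehicle arrays and 7.05, 6.49 and 6.35 on uninjured vehicle arrays. Wound alprostadil replicate 1 stood alone, and the wound alprostadil difference from wound vehicle was 0.73 ± 0.65 with it and -0.28 without it. Il1a, dim and untested, measured 5.19, 4.75 and 4.60 on wound trimebutine arrays, 8.27, 4.82 and 5.26 on wound alprostadil arrays, 5.27, 5.83 and 4.80 on wound vehicle arrays and 5.20, 4.64 and 4.58 on uninjured vehicle arrays. It was above the array median only on wound alprostadil replicate 1. Il1b ranged from 4.80 to 5.77, below the median on every array. Il33, an alarmin of the IL-1 family that cells hold in the nucleus, was above the median on all arrays at 11.84 to 12.72, and its wound vehicle difference was -0.33 ± 0.26. Il1rn, the natural antagonist of IL-1, lay higher on all wound trimebutine arrays (7.73, 7.84 and 8.02) than on all wound vehicle arrays (7.41, 7.37 and 7.58), by 0.41 ± 0.38 (adjusted p = 0.682).

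Ccl9, Cxcl2, Tnf and Il1a were thus high on the array with high macrophage markers. There Ctss (cathepsin S) was 12.97, Adgre1 (F4/80) 11.12 and Csf1r, the receptor for CSF1 and IL-34, 10.12, against at most 8.66, 7.12 and 6.95 on the other 11 arrays. Without that array, the 4 genes ranged on the other wound alprostadil arrays from 6.99 to 8.34 (Ccl9), 6.84 to 6.89 (Cxcl2), 6.22 to 6.38 (Tnf) and 4.82 to 5.26 (Il1a). The wound vehicle difference from uninjured vehicle does not use that array except through its variance, and without it 21 members had an unadjusted p under 0.05.

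**Figure D3:**
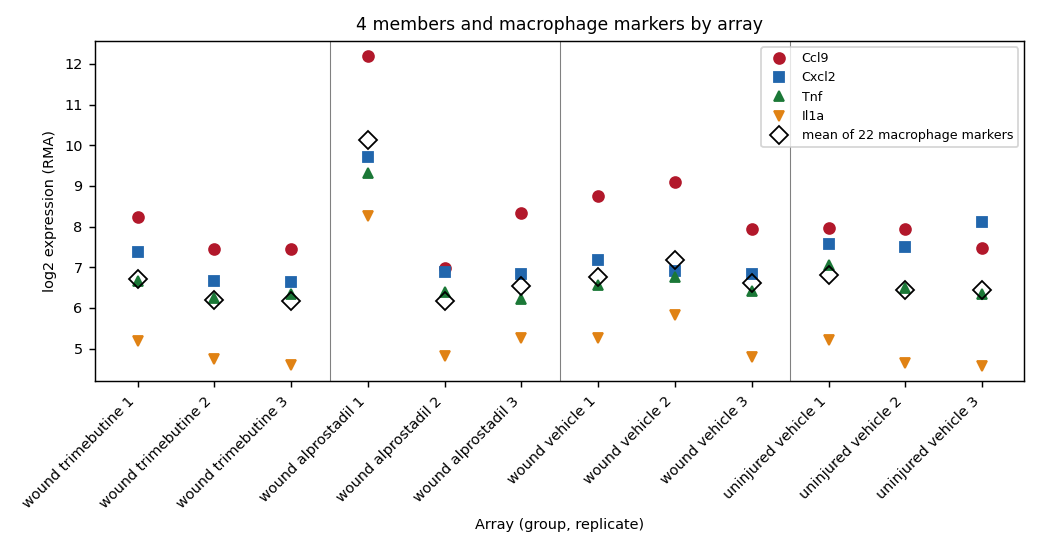
Log2 values of Ccl9, Cxcl2, Tnf and Il1a and the mean of 22 macrophage markers (diamonds) on each of the 12 arrays, with vertical lines between groups. All 5 are highest in wound alprostadil replicate 1, where the marker mean is 10.13.

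Among growth factors of myeloid cells, Il34 and Csf3 were lower in wound vehicle than in uninjured vehicle and Csf1 had a difference near 0. Il34 encodes a ligand of the CSF1 receptor that maintains Langerhans cells in skin, and it measured 7.82, 7.97 and 7.92 on wound trimebutine arrays, 7.93, 7.79 and 7.96 on wound alprostadil arrays, 7.70, 7.06 and 8.11 on wound vehicle arrays and 9.20, 8.79 and 8.29 on uninjured vehicle arrays. All 9 wound arrays lay below all 3 uninjured arrays. The differences were -1.14 ± 0.26 in wound vehicle (adjusted p = 0.17 in limma), -0.86 ± 0.26 in wound trimebutine (0.401) and -0.87 ± 0.26 in wound alprostadil (0.583). Csf3, the gene of the neutrophil growth factor G-CSF, measured 7.40, 6.75 and 6.60 on wound trimebutine arrays, 7.84, 6.87 and 7.18 on wound alprostadil arrays, 6.99, 6.64 and 6.88 on wound vehicle arrays and 7.92, 7.61 and 7.46 on uninjured vehicle arrays. Wound vehicle and wound trimebutine arrays lay below the uninjured arrays, by 0.83 ± 0.26 (adjusted p = 0.254) and 0.75 ± 0.26 (adjusted p = 0.529). Wound alprostadil overlapped the uninjured arrays only through replicate 1, the array with high macrophage markers. Its difference from uninjured vehicle was -0.37 ± 0.26 with that array and -0.64 without it. Csf1 ranged from 11.64 to 12.27, with a wound vehicle difference of -0.08 ± 0.14. Csf2 (5.96 to 6.31) and Tslp (5.98 to 7.02) were dim.

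Icam1 and Vcam1 encode adhesion molecules that hold leukocytes through integrins. Icam1 measured 11.14, 10.94 and 11.07 on wound trimebutine arrays, 10.59, 9.84 and 10.87 on wound alprostadil arrays, 9.81, 9.70 and 10.89 on wound vehicle arrays and 11.33, 11.36 and 11.11 on uninjured vehicle arrays. Wound trimebutine arrays overlapped the uninjured arrays and lay above all wound vehicle and wound alprostadil arrays, and wound vehicle replicate 3 and wound alprostadil replicate 3 lay above the other arrays of their groups. Icam1 was lower in wound vehicle than in uninjured vehicle by 1.13 ± 0.32 (adjusted p = 0.208 in limma) and higher in wound trimebutine than in wound vehicle by 0.91 ± 0.32 (adjusted p = 0.528). Vcam1 was also lowest on wound vehicle replicates 1 and 2 and wound alprostadil replicate 2, at 11.28, 11.66 and 11.31 in wound trimebutine, 10.72, 10.08 and 11.44 in wound alprostadil, 9.69, 9.0 and 11.65 in wound vehicle and 11.74, 11.56 and 10.83 in uninjured vehicle. Its wound trimebutine difference from wound vehicle was 1.30 ± 0.59 (adjusted p = 0.53), with overlap at wound vehicle replicate 3. That difference was 0.75 without wound vehicle replicate 2 and 2.07 without wound vehicle replicate 3.

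Lcn2, Saa3 and Sod2 are strong NF-kB targets. All 3 lay lower on every wound vehicle array than on any uninjured array, where 10.0% of tested genes did. Lcn2 encodes lipocalin-2, which withholds iron from bacteria, and it had the smallest p of the members across the 4 groups (adjusted p = 0.252 in the limma F test). It measured 10.48, 9.66 and 9.46 on wound trimebutine arrays, 10.56, 10.47 and 10.03 on wound alprostadil arrays, 9.80, 10.45 and 9.49 on wound vehicle arrays and 11.70, 11.64 and 11.24 on uninjured vehicle arrays. No wound array reached the uninjured arrays. Its differences from uninjured vehicle were -1.61 ± 0.30 in wound vehicle (adjusted p = 0.113), -1.66 ± 0.30 in wound trimebutine (0.0905) and -1.18 ± 0.30 in wound alprostadil (0.477). The wound trimebutine difference was -1.96 with an adjusted p of 0.0453 without wound trimebutine replicate 1, and did not pass with all arrays. Saa3, an acute phase protein made outside the liver, measured 13.78, 13.47 and 13.60 on wound trimebutine arrays, 13.68, 13.34 and 13.96 on wound alprostadil arrays, 12.92, 13.49 and 13.34 on wound vehicle arrays and 14.02, 14.01 and 13.87 on uninjured vehicle arrays. The wound vehicle difference was -0.71 ± 0.18 (adjusted p = 0.187), and wound alprostadil lay above wound vehicle by 0.41 ± 0.18 (adjusted p = 0.998), 0.24 without wound vehicle replicate 1. Sod2, the mitochondrial superoxide dismutase, averaged 12.29 ± 0.47 in wound trimebutine, 12.28 ± 0.55 in wound alprostadil, 11.86 ± 0.27 in wound vehicle and 13.00 ± 0.17 in uninjured vehicle (SD, n = 3 each), and its wound vehicle difference was -1.14 ± 0.29 (adjusted p = 0.195).

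The 5 feedback and subunit genes of the pathway had a median wound vehicle difference of -0.30 from uninjured vehicle. Nfkbia encodes IkB-alpha itself and averaged 9.54 ± 0.39 in wound trimebutine, 9.61 ± 0.60 in wound alprostadil, 9.31 ± 0.32 in wound vehicle and 10.18 ± 0.45 in uninjured vehicle (SD, n = 3 each). Its wound vehicle difference was -0.87 ± 0.33 without overlap (adjusted p = 0.326 in limma). Birc3, which encodes the ubiquitin ligase cIAP2, measured 9.02, 8.95 and 8.76 on wound trimebutine arrays, 9.03, 8.84 and 9.19 on wound alprostadil arrays, 9.10, 9.06 and 8.85 on wound vehicle arrays and 9.26, 9.30 and 9.57 on uninjured vehicle arrays. Every uninjured array was above every wound array, with differences of -0.37 ± 0.13 in wound vehicle (adjusted p = 0.282), -0.47 ± 0.13 in wound trimebutine (0.314) and -0.36 ± 0.13 in wound alprostadil (0.636). Nfkb2 and Relb, the subunits of the non-canonical dimer, and Tnfaip3, which encodes the inhibitor A20, had wound vehicle differences of -0.30 ± 0.20, -0.29 ± 0.17 and -0.27 ± 0.26.

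The surface receptors Cd40 and Tlr2 had unlike patterns. Cd40 encodes a TNF receptor family member that drives the non-canonical pathway, and it measured 8.02, 8.0 and 7.58 on wound trimebutine arrays, 8.69, 8.74 and 8.64 on wound alprostadil arrays, 9.20, 8.86 and 8.34 on wound vehicle arrays and 9.16, 8.72 and 9.40 on uninjured vehicle arrays. The 3 wound trimebutine arrays were the lowest of the 12, while the other 3 groups overlapped. Cd40 differed in wound trimebutine by -0.93 ± 0.23 from wound vehicle (adjusted p = 0.528 in limma, unadjusted p = 0.00203), by -0.83 ± 0.23 from wound alprostadil (adjusted p = 0.752) and by -1.23 ± 0.23 from uninjured vehicle (adjusted p = 0.103). With wound vehicle replicate 3 left out the last kept its size, with an adjusted p of 0.0447. Tlr2, a receptor for bacterial lipoproteins, measured 8.95, 8.51 and 7.89 on wound trimebutine arrays, 9.56, 8.12 and 8.64 on wound alprostadil arrays, 8.14, 7.87 and 8.25 on wound vehicle arrays and 9.53, 9.40 and 8.92 on uninjured vehicle arrays. Wound vehicle lay below uninjured vehicle by 1.20 ± 0.36 without overlap (adjusted p = 0.227), and wound alprostadil lay above wound vehicle by 0.69 ± 0.36 with overlap (adjusted p = 0.998). The second difference was 0.29 without wound alprostadil replicate 1, the array with high macrophage markers.

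**Figure D4:**
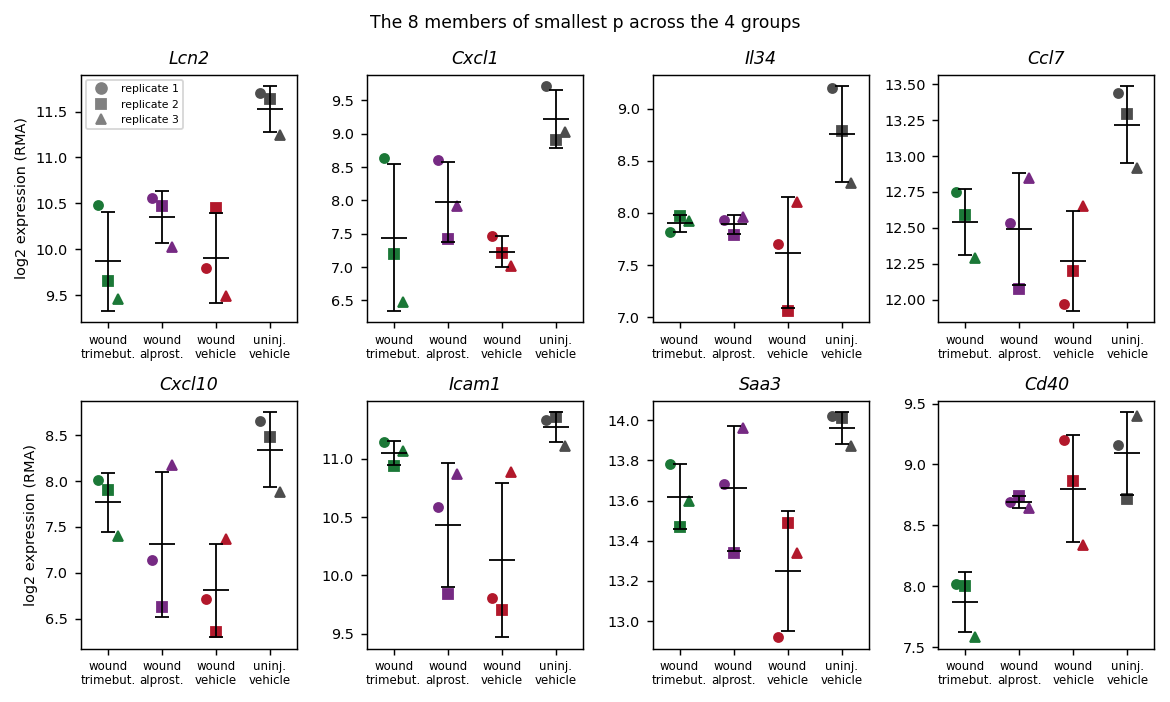
Log2 values of the 8 members of smallest p in the F test across the 4 groups, 1 panel each, with replicates as separate markers, the group mean as a line and bars of 1 SD (n = 3); each panel has its own log2 axis, which does not start at 0. In the Lcn2, Cxcl1, Il34 and Ccl7 panels all 3 uninjured points lie above all 9 wound points, and in the Cd40 panel the 3 trimebutine points lie lowest.

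The kappa-B consensus in the start window divided the tested members with a promoter entry into 11 with it and 14 without. Il6 is among the 11. It passed the filter only through the uninjured arrays, so the filter favours a lower value of it in the wound groups. In wound vehicle against uninjured vehicle, 10 of 11 lay lower with a median difference of -0.87 among members with a match, and 13 of 14 lay lower with a median of -0.40 among members without one. Lcn2 (-1.61), Cxcl12 (-1.16) and Icam1 (-1.13) lay lower with no match in the window, and Ccl9 (0.81) carries a match. Against uninjured vehicle, 11 of 11 lay lower in wound trimebutine with a match (median -0.57) and 10 of 14 without (-0.29). For wound alprostadil this was 8 of 11 (-0.51) and 13 of 14 (-0.42). Median differences from wound vehicle, with and without a match, were 0.23 and 0.25 for wound trimebutine and 0.42 and 0.2 for wound alprostadil. For wound trimebutine minus wound alprostadil they were -0.09 and 0.13. No test was made of this split.

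The rest of the pathway was read from 6 lists of 147 other genes, of which 95 were tested. These lists were also chosen with earlier results of these data known. None passed at an adjusted p of 0.05 in any of the 6 comparisons in limma, while at an unadjusted p under 0.05, 30 of 95 lay lower and 1 higher in wound vehicle than in uninjured vehicle (8.24% and 4.75% of all tested genes). Their median difference was -0.22. Of 24 other NF-kB target genes 13 lay lower at that level, with Steap4 (an iron reductase) at -1.91 ± 0.40 (adjusted p = 0.123), Cebpd, a transcription factor gene of the acute phase, at -0.93 ± 0.23 (0.187) and Il18, a cytokine gene of the IL-1 family, at -0.91 ± 0.23 (0.195). Of 18 cytokine receptors and IL-6 signalling genes 7 lay lower, with Il13ra2, a decoy receptor for IL-13, at -1.81 ± 0.48 (0.196) and Il4ra, part of the IL-4 receptor, at -1.34 ± 0.39 (0.219). Lifr, the receptor gene for LIF, differed by -1.57 ± 0.56 (0.297), and it lay higher in wound trimebutine than in wound vehicle by 1.57 ± 0.56 (adjusted p = 0.528 in limma).

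Of 15 receptors upstream of NF-kB, 6 lay lower and 1 higher at an unadjusted p under 0.05 in wound vehicle than in uninjured vehicle, against 8.24% and 4.75% of all tested genes, and 13 had a difference below 0. Il1r2, a decoy receptor for IL-1, measured 6.98, 7.38 and 7.37 on wound trimebutine arrays, 6.55, 5.74 and 8.09 on wound alprostadil arrays, 6.24, 5.79 and 7.36 on wound vehicle arrays and 9.01, 8.63 and 7.59 on uninjured vehicle arrays, and its wound vehicle difference was -1.95 ± 0.59 (adjusted p = 0.234 in limma). Among signalling receptors, wound vehicle differences were -0.86 ± 0.31 (Il1r1), -0.35 ± 0.12 (Tnfrsf1a) and -0.58 ± 0.17 (Tlr3, a sensor of double-stranded RNA). The 1 receptor that lay higher was Tnfrsf12a, at 0.69 ± 0.26 (adjusted p = 0.326 in limma). Of 23 genes of NF-kB subunits and pathway proteins 3 lay lower at an unadjusted p under 0.05, with Bcl3, a nuclear IkB family gene, at -0.39 ± 0.11 (adjusted p = 0.218) and Tnip2, which encodes a partner of A20, at -0.31 ± 0.10 (0.247). Nfkbiz, which encodes the nuclear protein IkB-zeta, had a wound vehicle difference of -0.02 ± 0.24 from uninjured vehicle, and a wound trimebutine difference of -0.55 ± 0.24 from wound vehicle (adjusted p = 0.53 in limma). Rela, the main activating subunit, averaged 11.47 ± 0.34 in wound trimebutine, 11.60 ± 0.34 in wound alprostadil, 11.38 ± 0.11 in wound vehicle and 11.62 ± 0.12 in uninjured vehicle (SD, n = 3 each), and its wound vehicle difference was -0.24 ± 0.19. Ptgs2, the prostaglandin synthase COX-2 and an NF-kB target, had a wound vehicle difference of 0.24 ± 0.41.

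Of 7 other chemokines tested, 4 lay below 0 in wound vehicle minus uninjured vehicle, with a median difference of -0.05. Cxcl13, which guides B cells, was the 1 with an unadjusted p under 0.05, at -1.38 ± 0.44 (adjusted p = 0.255 in limma). It measured 6.87, 6.74 and 7.15 on wound trimebutine arrays, 6.47, 6.54 and 7.92 on wound alprostadil arrays, 6.59, 6.68 and 6.42 on wound vehicle arrays and 8.72, 8.06 and 7.03 on uninjured vehicle arrays. Ccl6 and Ccl3 lay the other way from most members. Ccl6 measured 8.30, 5.97 and 5.48 on wound trimebutine arrays, 11.66, 6.12 and 8.42 on wound alprostadil arrays, 9.63, 10.34 and 9.02 on wound vehicle arrays and 8.55, 7.06 and 4.27 on uninjured vehicle arrays, and its wound vehicle difference was 3.03 ± 1.40 (adjusted p = 0.396 in limma). Ccl3 measured 7.17, 5.65 and 5.76 on wound trimebutine arrays, 11.74, 6.22 and 7.52 on wound alprostadil arrays, 7.08, 9.57 and 7.06 on wound vehicle arrays and 7.17, 6.07 and 5.74 on uninjured vehicle arrays. Both were highest on wound alprostadil replicate 1, with wound vehicle replicate 2 second, and these arrays also had the highest means of the macrophage markers (10.13 and 7.19). The part of those markers in these values was not tested. None of 8 chemokine receptors tested lay lower or higher in wound vehicle at an unadjusted p under 0.05. Wound vehicle differences were 0.29 ± 0.45 for Ackr1, an atypical receptor that binds many chemokines, 0.81 ± 0.71 for Cxcr4, the receptor of CXCL12, and -0.12 ± 0.37 for Ccrl2. Cxcr4 was highest on wound alprostadil replicate 1, at 11.21, against at most 8.61 on the other 11 arrays.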

How the data were processed

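Expression was measured on Affymetrix Mouse Gene 2.0 ST arrays in 12 SKP cultures. The deposited log2 values were made by the authors with RMA, per the submitters' processing notes, which also name the R package oligo and no versions. Of 41345 probe sets, 23521 carried 1 gene symbol in the platform annotation, 1814 several and 16010 none, and only the first kind was used. The brightest probe set per symbol was kept. All 4 groups entered 1 fit in limma 3.58.1 (R 4.3.3), with 8 residual degrees of freedom, two-sided p-values and Benjamini-Hochberg adjustment over 13153 genes. P-values set a group difference against the spread between isolates within groups, pooled over all 4 groups. Wound alprostadil replicate 1 enters that spread in every comparison, and 3 arrays a group limit the precision. The fit was tested on simulated arrays with 200 changed genes, normal noise of equal spread in every group and no outlying array. There, 77.1% of changes of 1 log2 unit passed in wound vehicle against uninjured vehicle, and 4.2% of calls were false. The real arrays differ from that setting, so these shares do not carry over to them.

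The members and lists were chosen with earlier results of these data known. Per-array values are printed for members with the 8 smallest F test p or the 3 smallest p of each comparison. They are also printed for members with a span over 3 log2 units. Other genes are the 3 of smallest F test p per list, 5 fixed ones, of which Nfkb1 is not analysed here, and Tnfrsf12a. Correlations of deviations between same-numbered arrays were 0.57, 0.22 and 0.42 for wound trimebutine with wound alprostadil and 0.19, 0.43 and 0.62 for wound alprostadil with wound vehicle, all above 0.1, and not all above it for the other pairs of groups. Alternatives were 2 other filters, the mean of probe sets, median centring, a replicate block, another variance model, only the groups compared, and leaving out each array. Figures were drawn with matplotlib 3.10.9 (Python 3.11.15).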

Additional observations from a re-analysis of the deposited data

How the results depend on the processing

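Under the settings that kept all arrays no member passed the adjusted threshold in limma, and the member median kept its sign in all 6 comparisons. Over all tested genes, the count passing in wound vehicle against uninjured vehicle (6) was 0 with genes above the median on 6 arrays, 1 with arrays centred on their medians, 2 with the replicate block and 0 with only the 2 groups. In wound trimebutine against uninjured vehicle (26) it was 17 centred, 10 with the replicate block and 15 with the 2 groups, and in the F test (2) it was 0, 1 and 0 with 6 arrays, centring and the block. The main fit and the replicate block both gave 0 calls in wound trimebutine against wound alprostadil and in wound alprostadil against wound vehicle. Those pairs of groups had correlations all above 0.1, but the labels do not say what a shared replicate number means. The block changed no call on a member.

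Leaving out each array gave 0 to 30 genes for wound vehicle, 0 to 27 for wound trimebutine and 0 to 11 for wound alprostadil against uninjured vehicle, 0 to 11 for wound trimebutine and 0 to 1 for wound alprostadil against wound vehicle, 0 to 1 between the drugs and 0 to 6 in the F test. The member median then ran from -0.96 to -0.68, from -0.54 to -0.31, from -0.78 to -0.33, from 0.13 to 0.43, from 0.12 to 0.58 and from -0.18 to 0.13 in the same order of comparisons. The value of -0.78 came without uninjured vehicle replicate 3. The causes of these shifts were not tested.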
